A study of Mus musculus with 15 samples.

Results

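The genes described here are a group of molecules through which regulatory T (Treg) cells restrain immune responses, together with the transcription factors that control them. They comprise the cytokine genes Il10, Ebi3 and Tgfb1, the secreted or surface molecules Fgl2, Lgals1 and Areg, the ectoenzyme genes Entpd1 and Nt5e, and the regulators Prdm1 and Maf. They were chosen by symbol in the platform annotation, with the brightest probe set of each. Of the 10 genes, 9 had a probe set with a single annotated symbol, out of 19938 genes with one, and all 9 passed the filter on low values that left 10964 genes for testing. Areg, which encodes the epidermal growth factor receptor ligand amphiregulin, had no such probe set and was not analysed here.

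Splenic CD4+CD25+ cells, labelled as Treg cells, were sorted from 4 genotypes and measured on 15 arrays. The dKO mice lacked both Ikzf2, which encodes Helios, and Ikzf4, which encodes Eos, and were represented by 3 arrays. Ikzf4-/- mice lacked Eos alone (3 arrays) and Ikzf2-/- mice lacked Helios alone (3 arrays). WT mice were represented by 6 arrays numbered 1 to 6. The WT arrays were split by their numbers into 2 sets, so that dKO and Ikzf4-/- were compared with WT 1 to 3 and Ikzf2-/- with WT 4 to 6. Values are log2 signals, on which a difference of 1 is a doubling. Strain, age and treatment of the mice, the form of the knockout alleles, and whether the arrays came from separate animals are not given in the sources used here. The p-values therefore rest on array-to-array spread, part of which can be technical.

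As background, effector Treg cells act on other cells in several ways. They secrete IL-10, which signals through STAT3, and TGF-beta, which is held in a latent complex until released. EBI3 pairs with the p35 subunit to form IL-35, and FGL2 engages inhibitory Fc receptors on antigen-presenting cells. CD39, encoded by Entpd1, and CD73, encoded by Nt5e, act in sequence to turn extracellular ATP into adenosine. Galectin-1, encoded by Lgals1, binds glycans on target cells. Blimp-1, encoded by Prdm1, and c-Maf both promote Il10 transcription in Treg cells. Helios and Eos belong to the Ikaros family of zinc finger proteins, which bind a short GGGAA core in DNA.

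Proximal promoters were read to show where letters bound by these factors lie. RefSeq (GRCm38.p6) windows of 250 bases upstream of the start site were given for 6 of the genes, namely Fgl2, Prdm1, Ebi3, Tgfb1, Entpd1 and Nt5e. Fgl2 is printed because its dKO and Ikzf2-/- arrays lay above their WT arrays, and Prdm1 because it encodes a regulator of Il10 and its window held 3 GGGAA cores. The Fgl2 window is chr5:21372423-21372672 on the plus strand and the Prdm1 window chr10:44458749-44458998 on the minus strand, both written 5′ to 3′ along the gene. Capitals mark GGGAA or its reverse complement.
Fgl2: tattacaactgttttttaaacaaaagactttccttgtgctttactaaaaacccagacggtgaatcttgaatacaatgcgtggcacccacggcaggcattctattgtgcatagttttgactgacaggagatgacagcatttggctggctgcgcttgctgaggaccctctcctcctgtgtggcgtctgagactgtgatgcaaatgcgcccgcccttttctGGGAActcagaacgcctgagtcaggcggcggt
Prdm1: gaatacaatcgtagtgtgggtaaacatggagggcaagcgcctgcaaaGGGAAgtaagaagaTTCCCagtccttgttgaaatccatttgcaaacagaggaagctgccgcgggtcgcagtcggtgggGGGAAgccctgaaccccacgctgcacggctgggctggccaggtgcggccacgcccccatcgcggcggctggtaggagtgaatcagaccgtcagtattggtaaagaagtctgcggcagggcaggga

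In Fgl2 the single core lay at -32 to -28 from the start site and formed part of the longer Ikaros form TGGGAA. Fgl2 also held TGCTGA, part of a Maf recognition element, at -97 to -92. Prdm1 held GGGAA at -203 to -199 and -125 to -121, and its reverse complement at -189 to -185. Both strands were searched in the 7 windows of these 6 genes, of which Entpd1 had 2. GGGAA occurred in 6 of the 7 against 56.2% of all 32851 windows, TGGGAA, which contains it, in 3 against 21.6%, and TGCTGA in 1 against 16.1%. The letters GTGAAAG, part of the Blimp-1 element, occurred in 0 of the 7 against 3.57% of all windows. These matches describe sequence and do not show binding.

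The state of the cells and arrays bears on every value that follows. The 8 T cell and Treg markers, with Cd3g the brightest, lay above the median probe set in all groups, and their mean per array was 10.70 to 10.83 in dKO, 10.74 to 10.79 in Ikzf4-/- and 10.69 to 10.82 in WT 1 to 3. In set 2 it was 9.94 to 10.50 in Ikzf2-/- and 10.37 to 10.44 in WT 4 to 6, with Ikzf2-/- 2 the lowest. Ikzf2 is among these 8 markers, so its own lower signal in Ikzf2-/- and dKO enters the means. Ikzf2 itself averaged 9.47 ± 0.51 in Ikzf2-/- and 10.33 ± 0.07 in WT 4 to 6, and 10.29 ± 0.27 in dKO against 10.65 ± 0.17 in WT 1 to 3 (SD, n = 3 each). The last 2 groups overlapped, with dKO 3 at 10.59 inside the 10.46 to 10.76 of WT 1 to 3. Ikzf4 averaged 8.13 ± 0.07 in dKO and 8.18 ± 0.05 in Ikzf4-/- against 7.97 ± 0.12 in WT 1 to 3 (SD, n = 3 each), so its transcript was not lower in the libraries labelled as lacking it. Whether these probe sets lie in the deleted parts is not known, so Ikzf4 does not check the labels, and Ikzf2 does not check that of every dKO array. Il10 and the other genes were measured in bulk RNA, in which more cells of a type and more RNA per cell cannot be told apart.

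Markers of other cell types moved with some groups. The 11 B cell markers named on the array gave means of 5.61, 4.91 and 7.48 for Ikzf2-/- arrays 1, 2 and 3, while WT 4 to 6 lay between 4.89 and 5.09. The 10 neutrophil markers averaged 6.16, 5.64 and 8.19 in the Ikzf2-/- arrays, all above the 4.86 to 5.35 of WT 4 to 6. Basophil, eosinophil and mast cell markers (7 genes) were at 4.52 to 4.84 in Ikzf2-/- and 4.2 to 4.29 in WT 4 to 6, and the 14 macrophage, monocyte and dendritic cell markers at 4.57 to 4.85 and 4.40 to 4.59 in those groups. Plasma cell markers (7 genes) averaged 6.43, 5.57 and 6.05 in the Ikzf2-/- arrays and 5.74 to 6.00 in WT 4 to 6. For CD8 T and NK cell markers (7 genes) the means were 4.70, 5.01 and 4.49, against 4.53 to 4.62 in WT 4 to 6. In set 1, dKO had B cell means of 4.27 to 4.32 and Ikzf4-/- of 4.28 to 4.41, while WT 1 stood apart at 6.45 from the 4.35 and 4.36 of WT 2 and WT 3. Neutrophil means in that set were 4.93 to 5.42 in dKO, 4.26 to 4.81 in Ikzf4-/- and 4.40 to 6.65 in WT 1 to 3. The 12 proliferation markers averaged 6.31 to 7.56 in Ikzf2-/-, all above the 5.80 to 6.16 of WT 4 to 6, and 6.27 to 7.35 in dKO against 6.13 to 6.63 in WT 1 to 3. The Y-linked gene Eif2s3y was at 3.09, 7.94 and 8.81 in dKO, 3.01, 2.97 and 8.64 in Ikzf4-/- and 3.08, 3.06 and 8.17 in WT 1 to 3, and at 2.87 to 3.01 in all arrays of set 2. The part of these signals in the differences given below was not tested.

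**Figure D1:**
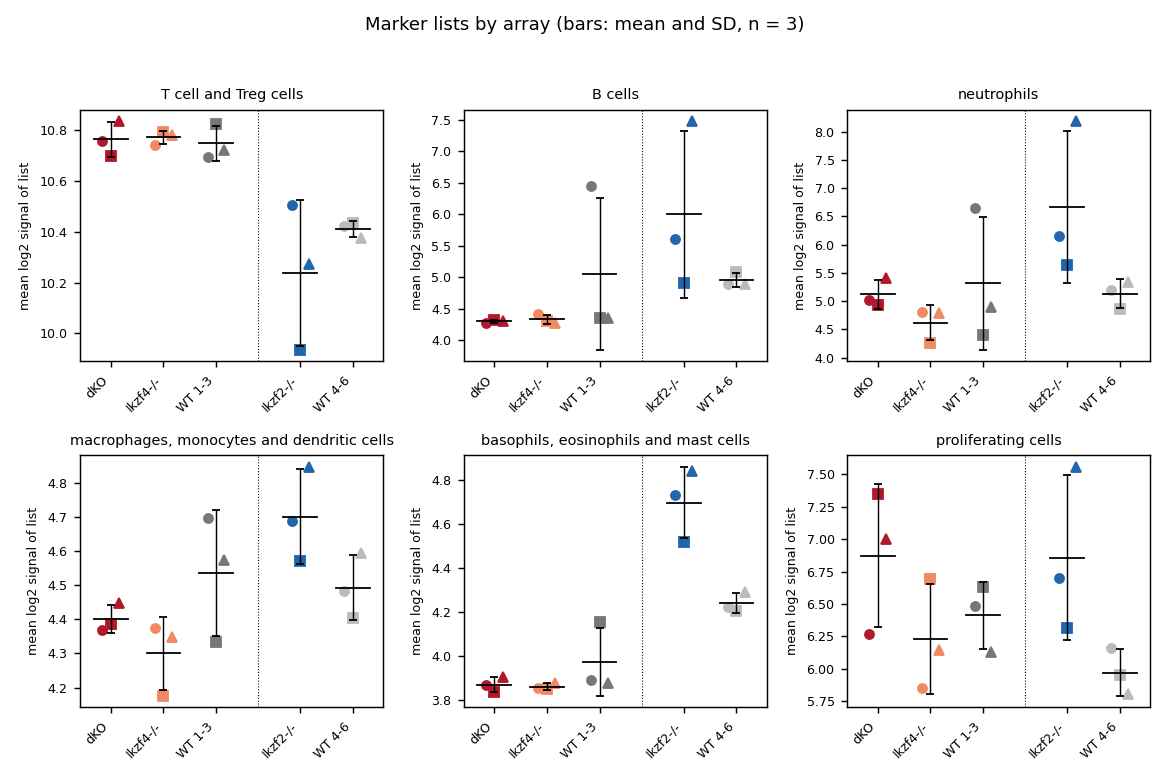
Mean log2 signal (vertical axis) of marker lists in every array, with groups along the horizontal axis and 1 point per array. The lists are those of T and Treg cells, B cells, neutrophils, macrophages with monocytes and dendritic cells, basophils with eosinophils and mast cells, and proliferating cells. Ikzf2-/- 3 and WT 1 stand above the other arrays of their groups in B cell markers, at 7.48 and 6.45, and the Ikzf2-/- arrays stand above WT 4 to 6 in neutrophil markers.

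None of the 9 genes passed the threshold of an adjusted p of 0.05 in any comparison by limma with Benjamini-Hochberg adjustment over all genes. Few genes of any kind did: 0.0638% of those tested in Ikzf2-/- and again in dKO against their WT arrays, 0.0274% in dKO against Ikzf4-/- and 0.0% in Ikzf4-/- against WT 1 to 3. At an unadjusted p under 0.05, 4 of the 9 differed in Ikzf2-/- (Il10, Fgl2, Lgals1 and Maf), all higher, where 16.4% of all genes differed and 10.9% were higher. In dKO against WT 1 to 3 the count was 3 (Maf, Il10 and Fgl2), all higher, where 4.38% of all genes differed and 2.39% were higher. It was 2 in dKO against Ikzf4-/- (Maf and Fgl2), both higher, where 3.48% differed and 1.79% were higher. In Ikzf4-/- against WT 1 to 3 it was 0, where 2.18% differed and 1.16% were higher. Comparisons of dKO and of Ikzf4-/- with WT share WT 1 to 3, and both dKO comparisons share the dKO arrays.

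**Figure D2:**
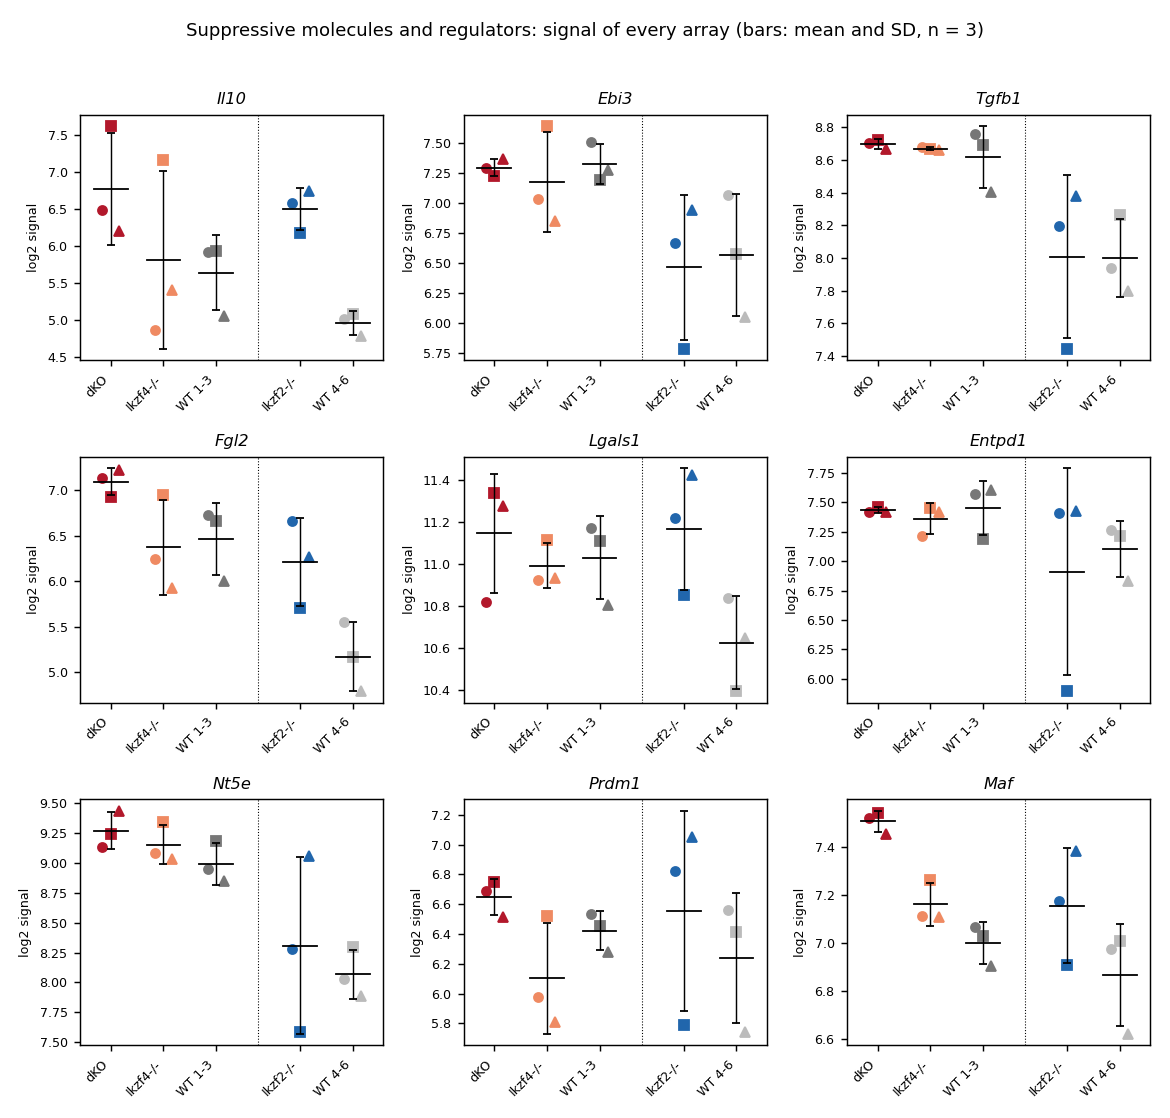
Log2 signal (vertical axis) of each of the 9 genes in every array, with groups along the horizontal axis, 1 point per array (circle, square and triangle in order of array number) and black bars for the mean and SD. Il10 and Fgl2 in Ikzf2-/- and in dKO lie above the WT arrays of the same set, and Entpd1 is at 5.89 in Ikzf2-/- 2, apart from its group.

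Il10, the suppressive cytokine that acts on myeloid cells and T cells, was read by probe set 10349603. Its log2 signal was 6.57, 6.18 and 6.73 in the Ikzf2-/- arrays, against 5.01, 5.08 and 4.77 in WT 4 to 6. The lowest Ikzf2-/- array lay above the highest WT array, a difference in log2 signal of 1.54 (SE 0.48, 95% interval 0.50 to 2.58), with an adjusted p of 0.148 by limma. The mean of WT 4 to 6, 4.95, lay just under the median over probe sets, log2 4.96, where RMA compresses differences, and no call of signal above background was used here, so no fold is given. Ikzf2-/- 2, with an Il10 signal of 6.18, had a B cell mean of 4.91, within the range of WT 4 to 6, and neutrophil and proliferation means of 5.64 and 6.31, above their ranges. In set 1, Il10 was at 6.48, 7.62 and 6.19 in dKO, at 4.85, 7.15 and 5.40 in Ikzf4-/-, and at 5.92, 5.93 and 5.05 in WT 1 to 3. Every dKO array was above every WT array, while the Ikzf4-/- arrays lay on both sides of WT. The difference between dKO and WT 1 to 3 was 1.13 (SE 0.48, interval 0.09 to 2.17, adjusted p = 1 by limma). It ran from 0.71 to 1.42 when 1 array was left out. WT 3, at 5.05, lay near log2 4.96 as well, so no fold is given here either. Group means were ordered dKO (6.76 ± 0.75), Ikzf4-/- (5.80 ± 1.2) and WT 1 to 3 (5.63 ± 0.51; SD, n = 3 each), and dKO and Ikzf4-/- overlapped through Ikzf4-/- 2. Without Ikzf4-/- 2, the difference of dKO from Ikzf4-/- was 1.64 in place of 0.96, and that of Ikzf4-/- from WT 1 to 3 was -0.51 in place of 0.17.

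Fgl2, whose product restrains antigen-presenting cells, was read by probe set 10519983 and had the same arrangement of arrays. The Ikzf2-/- arrays gave 6.67, 5.70 and 6.26, and WT 4 to 6 gave 5.55, 5.17 and 4.79. These groups did not overlap, with a difference of 1.04 (SE 0.29, interval 0.42 to 1.67) and an adjusted p of 0.117 by limma. WT 6 lay under the median over probe sets, log2 4.96, and the mean of WT 4 to 6, 5.17, near it, so no fold is given. Without Ikzf2-/- 2 the difference was 1.3 and the adjusted p 0.04995. The dKO arrays read 7.14, 6.93 and 7.22, the Ikzf4-/- arrays 6.24, 6.94 and 5.93, and WT 1 to 3 read 6.73, 6.66 and 6.00. All dKO arrays lay above WT, by 0.63 on average (SE 0.29, interval 0.01 to 1.25, adjusted p = 1), while Ikzf4-/- differed from WT by -0.09 (SE 0.29, interval -0.72 to 0.53). The mean of dKO, 7.09 ± 0.15, exceeded that of Ikzf4-/-, 6.37 ± 0.52 (SD, n = 3 each), by 0.72 (SE 0.29, adjusted p = 1). Ikzf4-/- 2, the array highest in Il10 in its group, overlapped the dKO range for Fgl2 as well.

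Lgals1 showed the third separation in Ikzf2-/-. Its signal was 11.22, 10.85 and 11.42 in Ikzf2-/- and 10.84, 10.39 and 10.64 in WT 4 to 6. The lowest Ikzf2-/- array lay just above the highest WT array, and the difference was 0.54 (SE 0.17, interval 0.17 to 0.91, adjusted p = 0.152 by limma), or 1.45-fold. In set 1 the groups overlapped, at 10.82 to 11.34 in dKO, 10.92 to 11.11 in Ikzf4-/- and 10.80 to 11.17 in WT 1 to 3. The dKO and Ikzf4-/- differences from WT were 0.12 (interval -0.25 to 0.48) and -0.04 (interval -0.41 to 0.33).

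Ebi3 and Tgfb1 did not separate the groups in either set. Ebi3, the subunit shared by IL-35 and IL-27, was at 6.66, 5.78 and 6.94 in Ikzf2-/- and 7.07, 6.58 and 6.05 in WT 4 to 6. In set 1 it ranged from 7.23 to 7.36 in dKO, from 6.85 to 7.64 in Ikzf4-/- and from 7.19 to 7.51 in WT 1 to 3. Its differences were -0.10 (interval -0.72 to 0.52) in Ikzf2-/-, -0.03 (interval -0.65 to 0.59) in dKO and -0.15 (interval -0.77 to 0.47) in Ikzf4-/-. Tgfb1, the precursor of TGF-beta, was at 8.20, 7.44 and 8.38 in Ikzf2-/- against 7.94, 8.26 and 7.80 in WT 4 to 6. It lay between 8.67 and 8.72 in dKO, between 8.66 and 8.68 in Ikzf4-/- and between 8.41 and 8.76 in WT 1 to 3. The intervals of its differences were -0.40 to 0.42 in Ikzf2-/-, -0.33 to 0.49 in dKO and -0.36 to 0.46 in Ikzf4-/-.

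The ectoenzymes of the adenosine pathway also overlapped between groups. Entpd1, which encodes the ATP-degrading enzyme CD39, was at 7.41, 5.89 and 7.43 in Ikzf2-/-, and at 7.26, 7.22 and 6.83 in WT 4 to 6. Ikzf2-/- 2 set the direction: the difference was -0.19 (SE 0.30) with it and 0.32 (SE 0.14) without it. Entpd1 was at 7.42 to 7.46 in dKO, 7.22 to 7.45 in Ikzf4-/- and 7.19 to 7.60 in WT 1 to 3. Nt5e, which encodes the adenosine-producing enzyme CD73, was at 8.28, 7.58 and 9.06 in Ikzf2-/-, and at 8.03, 8.29 and 7.88 in WT 4 to 6. The difference was 0.24 (interval -0.32 to 0.80), and it was 0.60 without Ikzf2-/- 2 and -0.13 without Ikzf2-/- 3. In set 1 Nt5e was at 9.13, 9.24 and 9.44 in dKO, 9.09, 9.34 and 9.03 in Ikzf4-/- and 8.95, 9.19 and 8.85 in WT 1 to 3. Both knockout groups overlapped WT through WT 2, with differences of 0.28 (interval -0.29 to 0.84) for dKO and 0.16 (interval -0.41 to 0.72) for Ikzf4-/-.

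Of the 9 genes, the regulator Maf had the smallest unadjusted p in dKO against WT. c-Maf, the factor that activates Il10, was read by probe set 10581992. Its signal was 7.52, 7.54 and 7.46 in dKO, 7.11, 7.26 and 7.11 in Ikzf4-/-, and 7.07, 7.03 and 6.90 in WT 1 to 3. The 3 groups did not overlap, and their means were ordered dKO, Ikzf4-/- and WT. The difference of dKO from WT was 0.51 (SE 0.12, interval 0.24 to 0.77), or 1.42-fold, with an unadjusted p of 0.0011 and an adjusted p of 0.366 by limma. Ikzf4-/- differed from WT by 0.16 (SE 0.12, interval -0.10 to 0.43) and dKO from Ikzf4-/- by 0.35 (SE 0.12, interval 0.08 to 0.61), each with an adjusted p of 1. With arrays weighted by their quality the dKO difference was 0.49 and its adjusted p 0.0385. In set 2 Maf was at 7.17, 6.91 and 7.39 in Ikzf2-/- and 6.97, 7.01 and 6.62 in WT 4 to 6. Those groups overlapped through Ikzf2-/- 2, with a difference of 0.29 (SE 0.12, interval 0.02 to 0.55, adjusted p = 0.262).

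Prdm1, which encodes Blimp-1, varied more between arrays. It was at 6.83, 5.79 and 7.05 in Ikzf2-/- against 6.56, 6.41 and 5.74 in WT 4 to 6, a difference of 0.32 (interval -0.30 to 0.94). Both Ikzf2-/- 1 and Ikzf2-/- 3 exceeded all 3 WT arrays, while Ikzf2-/- 2 lay near the lowest of them, and the difference was 0.70 without Ikzf2-/- 2 and 0.07 without Ikzf2-/- 3. In set 1 the signal was 6.69, 6.75 and 6.51 in dKO, 5.98, 6.52 and 5.81 in Ikzf4-/- and 6.54, 6.45 and 6.28 in WT 1 to 3. The dKO mean exceeded that of Ikzf4-/- by 0.55 (SE 0.29, interval -0.07 to 1.17, adjusted p = 1) and that of WT by 0.23 (interval -0.39 to 0.85), and Ikzf4-/- differed from WT by -0.32 (interval -0.94 to 0.30).

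Across the members, the count of genes whose arrays did not overlap was read against all genes. In Ikzf2-/- against WT 4 to 6, 3 of 9 (Il10, Fgl2 and Lgals1) lay wholly higher, against 10.7% of all genes, and 0 lay wholly lower, against 5.5%. In dKO against WT 1 to 3, 3 of 9 (Il10, Fgl2 and Maf) lay wholly higher, against 5.34% of all genes, and 0 wholly lower, against 4.22%. For Ikzf4-/- against WT 1 to 3, and for dKO against Ikzf4-/-, Maf alone did, against 3.62% and 4.09% of all genes, and 0 lay wholly lower, against 2.92% and 4.19%. Il10 and Fgl2 lay wholly higher in both Ikzf2-/- and dKO, as did 107 of the genes tested (0.976%). The median difference over the 9 genes was 0.29 in Ikzf2-/-, 0.23 in dKO and -0.04 in Ikzf4-/- against their WT arrays, where all genes had medians of 0.02, 0.004 and 0.006. Between dKO and Ikzf4-/- all 9 differences were positive, from 0.03 for Tgfb1 to 0.96 for Il10, with a median of 0.15 against -0.002 for all genes.

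**Figure D3:**
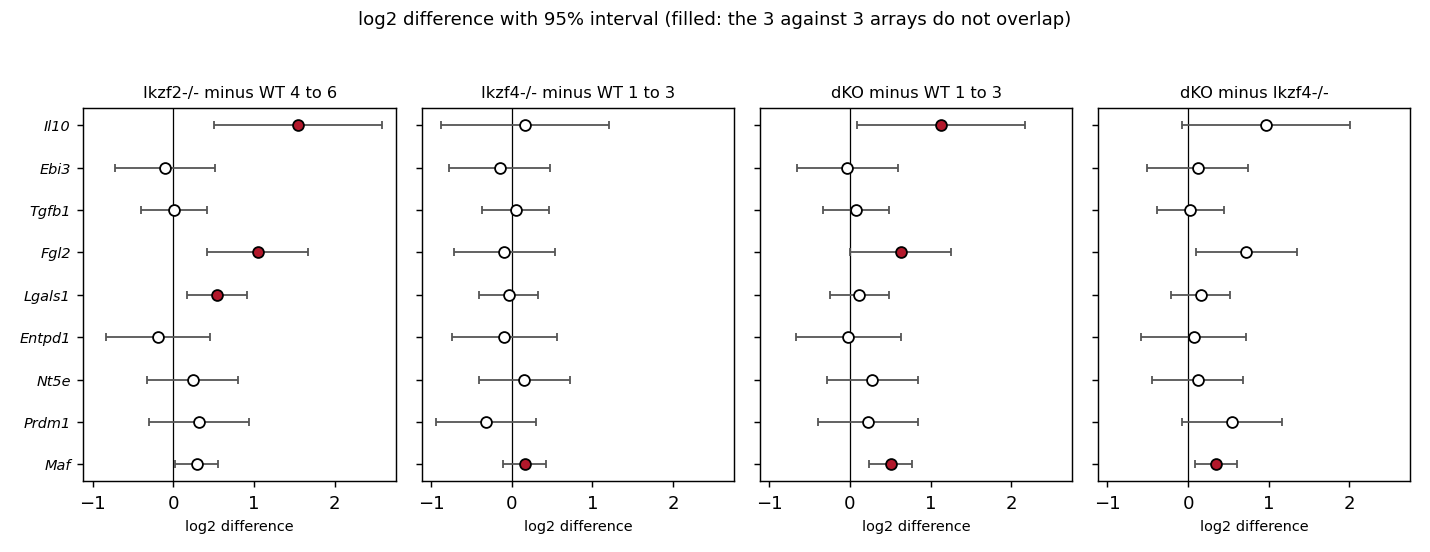
Log2 difference (horizontal axis) of each of the 9 genes in the 4 comparisons, with 95% intervals from limma; filled red points mark genes whose arrays did not overlap between the groups. Il10 has the widest intervals, and the points for Ikzf4-/- against WT lie between -0.32 and 0.17.

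The Ikzf2-/- comparison depended on single arrays. Ikzf2-/- 2 was the lowest of its group in all 9 genes and had the lowest mean of T cell and Treg markers, Ikzf2 among them. The weight estimated by limma for Ikzf2-/- 2 was 0.127, against 0.365 for Ikzf2-/- 3 and 0.589 to 2.28 for the other arrays. Without it, 8 of the 9 genes were higher at an unadjusted p under 0.05, where 18.0% of all genes were, and Fgl2 passed the adjusted threshold, where 1.52% of all genes did. Leaving out the lowest array of a group raises its mean, so a rise in all 9 differences was fixed by this choice. The counts without it are therefore not comparable with those shares. Without Ikzf2-/- 1 or without Ikzf2-/- 3 the count higher at an unadjusted p under 0.05 was 3 each, where 12.6% and 8.8% of all genes were. Leaving out Ikzf2-/- 2 moved Tgfb1 to 0.29, Maf to 0.41 and Lgals1 to 0.70 (adjusted p 0.0601). Leaving out Ikzf2-/- 3, which led all arrays in B cell and neutrophil means, moved Tgfb1 to -0.18, Maf to 0.17 and Lgals1 to 0.41 (adjusted p 0.322). Without Ikzf2-/- 1 they were -0.09, 0.28 and 0.51 (adjusted p 0.158 for Lgals1).

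Whether loss of Helios acted differently in cells without Eos was addressed by the difference of the differences, (dKO minus Ikzf4-/-) minus (Ikzf2-/- minus WT 4 to 6). Since Il10 and Fgl2 in WT 4 to 6 lay near the median over probe sets, their differences in set 2 may be compressed relative to those in set 1. This bears on both contrasts given here. The difference of the differences was -0.58 for Il10 (interval -2.05 to 0.90, adjusted p = 0.939), -0.32 for Fgl2 (interval -1.20 to 0.56, adjusted p = 0.943) and -0.39 for Lgals1 (interval -0.91 to 0.14, adjusted p = 0.83). For the regulators it was 0.06 for Maf (interval -0.32 to 0.43, adjusted p = 0.978) and 0.23 for Prdm1 (interval -0.65 to 1.10, adjusted p = 0.965). The change from WT in dKO minus that in Ikzf2-/- was -0.41 for both Il10 (interval -1.88 to 1.06) and Fgl2 (interval -1.30 to 0.47), -0.42 for Lgals1 (interval -0.94 to 0.10), 0.22 for Maf (interval -0.16 to 0.59) and -0.09 for Prdm1 (interval -0.97 to 0.78). These intervals span both zero and changes as large as those measured in Ikzf2-/- for Il10 and Fgl2, so the arrays do not resolve whether the 2 backgrounds differ. By limma, 0.0% of all genes passed either test, and 6.29% and 7.3% had an unadjusted p under 0.05.

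Whether Il10 varied with its regulators inside a genotype was examined on deviations from the group means, which leave out differences between genotypes and between the sets. Over 15 arrays the deviation of Il10 correlated with that of Maf at r = 0.516 (two-sided exact permutation within groups, p = 0.000514, 0.00412 after Benjamini-Hochberg adjustment over 8 relations; Spearman's rho 0.693, adjusted exact p = 0.0103). For Prdm1 r was 0.573 (exact permutation p = 0.00334, adjusted 0.00892; rho 0.65, adjusted 0.0144). These permutations treat the groups as independent, although same-numbered arrays of set 1 deviated together: array 2 was the highest in Il10 in dKO, Ikzf4-/- and WT 1 to 3. With the array numbers of those 3 groups permuted together (216 permutations, added after the values were seen), the exact p was 0.00463 for Maf, the smallest they can give, and 0.00926 for Prdm1 and Tgfb1, and the adjusted exact permutation p was 0.0247 for each of them. Leaving out the 2 arrays farthest from the median of the regulator gave 0.604 for Maf and 0.689 for Prdm1. Within set 1 (9 arrays) r was 0.879 for Maf and 0.867 for Prdm1, and within set 2 (6 arrays) it was 0.962 and 0.974. Set 2 values were also high for other members, at 0.933 for Entpd1, 0.927 for Nt5e and 0.904 for Ebi3. Fgl2 had 0.74 and Lgals1 0.605 there, so such values were not particular to the regulators. Tgfb1 also passed, at r = 0.316 (exact permutation p = 0.00283, adjusted 0.00892; rho 0.543, adjusted 0.0298), with 0.297 without 2 arrays, 0.38 in set 1 and 0.965 in set 2. Fgl2, Ebi3, Lgals1, Nt5e and Entpd1 had r of 0.552, 0.468, 0.491, 0.35 and 0.24, with adjusted exact permutation p of 0.0902, 0.0753, 0.0753, 0.0753 and 0.139. With the numbers permuted together their adjusted exact p was 0.037, 0.0296, 0.0423, 0.0278 and 0.125, so only the call for Entpd1 stayed on its side of 0.05 among these. The share of all genes with such a relation to Il10 was not computed. These calls therefore do not set Maf, Prdm1 or Tgfb1 apart from other genes of the arrays.

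Single arrays were high or low in many members at once. Ikzf4-/- 2 was the highest of its group in 8 of the 9 genes, all but Tgfb1. In set 2, Ikzf2-/- 2 was the lowest of its group in every member. The deviation of Il10 also followed the mean of the proliferation markers, with r = 0.697 (exact permutation p = 0.0118; rho 0.721, exact p = 0.0132), a relation chosen after its values were seen. It was 0.79 within set 1 and 0.845 within set 2, and 0.791 without 2 arrays. All genes of an array share its cells, RNA and hybridisation, and the part of these in the relations was not tested.

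**Figure D4:**
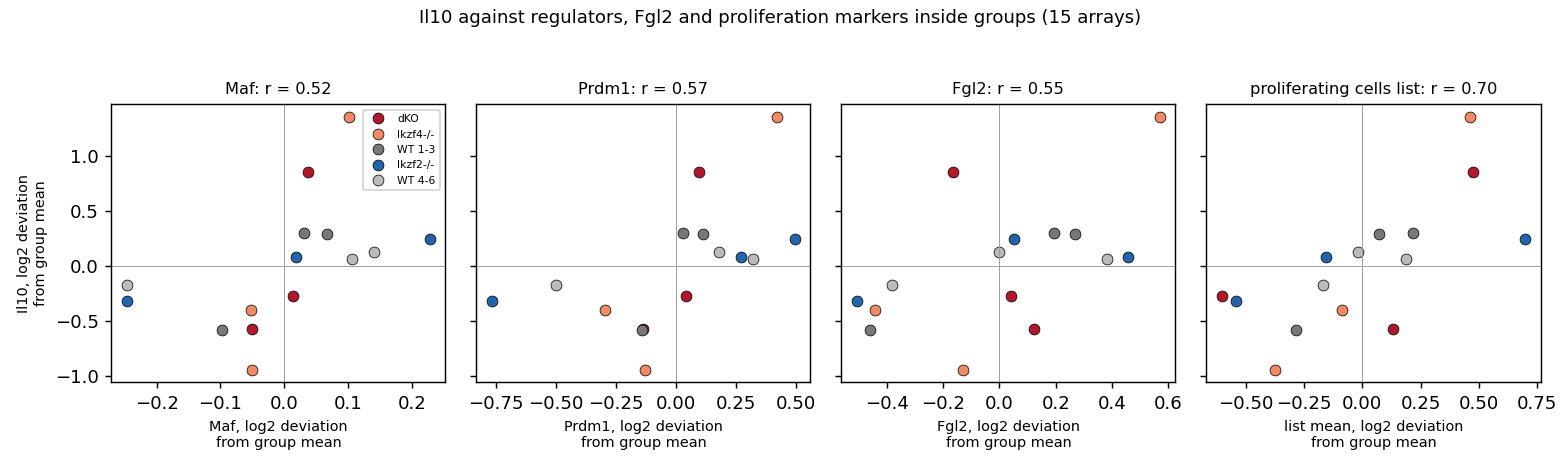
Deviation of Il10 from its group mean (vertical axis, log2) against that of Maf, Prdm1, Fgl2 and the mean of the proliferation markers (horizontal axes, log2), 1 point per array over 15 arrays, coloured by group. The deviations of Maf, Prdm1 and the proliferation mean follow that of Il10 with r of 0.516, 0.573 and 0.697.

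The 5 genes whose pattern was most like that of Il10 over the 15 arrays, each taken minus the WT mean of its set, were D16Ertd472e (r = 0.92), Car5b (0.915), Lag3 (0.901), Ncaph (0.892) and Sgo2a (0.888). Car5b encodes a mitochondrial carbonic anhydrase, Lag3 an inhibitory receptor of T cells, Ncaph a condensin subunit and Sgo2a a protector of chromosome cohesion. Of the members, Fgl2 was closest (r = 0.809, place 42 among the genes), ahead of Lgals1 (0.71), Maf (0.7), Prdm1 (0.646), Nt5e (0.453), Ebi3 (0.264), Tgfb1 (0.241) and Entpd1 (0.047). Car5b differed by 1.15 in Ikzf2-/- and 0.96 in dKO from their WT arrays, and by -0.29 in Ikzf4-/-. These likenesses describe the 15 arrays, and the points share their arrays and their control means.

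Genes around the members were read from 7 lists. In the list of IL-10, IL-35 and STAT3 signalling (11 genes tested of 14), 0 passed the threshold in any comparison, and at an unadjusted p under 0.05 dKO had 1 gene higher than in WT and 1 higher than in Ikzf4-/-, where 2.39% and 1.79% of all genes were. Il10ra, the ligand-binding IL-10 receptor chain, differed by 0.38 (SE 0.36) in Ikzf2-/- and 0.72 (SE 0.36) in dKO from their WT arrays. Socs3, the feedback inhibitor induced by STAT3, differed by 0.28 in dKO from WT and by 0.42 in dKO from Ikzf4-/-. The receptor chain gene Il27ra differed by -0.33 in Ikzf2-/-. Its arrays there read 7.89, 6.85 and 7.55, overlapping the 7.72, 7.91 and 7.67 of WT 4 to 6. The list median was -0.01 in Ikzf2-/- and 0.05 in dKO, near the medians of all genes, 0.02 and 0.004.

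The TGF-beta list (17 tested of 20) also held 0 genes past the threshold. In Ikzf2-/- 2 of the 17 had an unadjusted p under 0.05, where 16.4% of all genes did, so the list did not exceed the background. Both were lower: Itgb8, the integrin subunit that releases active TGF-beta, differed by -0.37 (SE 0.14, adjusted p = 0.227 by limma) and the receptor gene Tgfbr1 by -0.39 (SE 0.14, adjusted p = 0.19 by limma). Both overlapped WT 4 to 6. Itgb8 was at 7.62, 6.93 and 7.37 in Ikzf2-/- against 7.68, 7.85 and 7.49, and Tgfbr1 at 8.74, 8.37 and 8.16 against 8.71, 8.86 and 8.87. In dKO these 2 differed from WT by -0.03 and -0.11. Nrros, which anchors latent TGF-beta on myeloid cells, differed by 0.31 in both Ikzf4-/- and dKO from WT 1 to 3. In the adenosine list (11 tested of 17), Adk, the kinase that removes adenosine inside cells, was at 6.80, 7.0 and 6.88 in dKO against 7.25, 7.21 and 7.10 in WT 1 to 3, a difference of -0.29 (SE 0.09, adjusted p = 0.726 by limma). Dpp4, which encodes the surface peptidase CD26, was at 9.16, 9.32 and 9.23 in dKO against 8.98, 8.70 and 8.99, a difference of 0.35 (SE 0.11, adjusted p = 0.757). In dKO against WT, 2 of the 11 lay wholly higher, Dpp4 and the nucleoside transporter gene Slc29a1 (by 0.27), against 5.34% of all genes. Wholly lower were 2, Adk among them, against 4.22%. In Ikzf2-/- Slc29a1 differed by 0.38 and overlapped WT 4 to 6, at 6.04, 6.04 and 6.94 against 6.07, 6.08 and 5.72.

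Among 19 tested upstream regulators of effector Treg genes, 0 passed the threshold. At an unadjusted p under 0.05 there was 1 in Ikzf2-/- and 2 in dKO against WT, where 16.4% and 4.38% of all genes were. The list medians were 0.21 in Ikzf2-/- and 0.08 in dKO, against 0.02 and 0.004 for all genes. Id2, the inhibitor of E proteins that marks effector cells, differed by 0.59 (SE 0.29) in Ikzf2-/- and 0.76 (SE 0.29) in dKO from WT. Its counterpart Id3, which is linked to resting cells, differed by -0.35 in dKO from WT and by -0.58 in dKO from Ikzf4-/-. In Ikzf2-/- it differed by 0.24 (SE 0.20) from WT 4 to 6, with overlap and Ikzf2-/- 2 the highest. The arrays there read 6.84, 7.75 and 7.21 against 6.98, 7.12 and 6.98. Tbx21, encoding the type 1 factor T-bet, differed by 0.30 in Ikzf2-/- and 0.35 in dKO.

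One list member passed the threshold. Il18r1, a receptor chain for IL-18, a signal that raises amphiregulin in mouse Treg cells, was at 7.61, 7.64 and 7.59 in dKO, 8.07, 8.13 and 7.95 in Ikzf4-/-, and 8.52, 8.38 and 8.23 in WT 1 to 3. The groups did not overlap, and it fell by 0.77 on the log2 scale in dKO relative to WT (SE 0.12, adjusted p = 0.0445 by limma). That call was lost under 18 of 27 alternatives, applied to this gene after its value was seen, with an adjusted p between 0.0135 and 0.236, while the difference stayed between -0.84 and -0.69. Differences of -0.33 in Ikzf4-/- and -0.51 in Ikzf2-/- (adjusted p = 0.0893) from their WT arrays did not pass. Neither pair of groups overlapped, where 2.92% and 5.5% of all genes lay wholly lower. In Ikzf2-/- its signal was 7.93, 7.94 and 7.82, against 8.68, 8.08 and 8.46 in WT 4 to 6. The protease gene Adam10 differed by 0.30 and the oxysterol receptor gene Gpr183 by 0.36 in dKO from WT, with adjusted p of 0.668 each. Ikzf4-/- alone differed from WT by 0.25 in Adam10 and 0.14 in Gpr183, and dKO differed from Ikzf4-/- by 0.06 and 0.23.

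In the galectin list (12 tested of 14) and the list of other suppressive molecules (18 tested of 20) 0 genes passed. At an unadjusted p under 0.05, 5 of the 12 galectin list genes differed in Ikzf2-/-, 2 higher and 3 lower, where 16.4% of all genes differed. In dKO against WT 1 of them did, lower, where 4.38% of all genes differed. Cd7, a galectin-1 receptor, was at 8.29, 7.53 and 8.30 in dKO against 8.90, 9.08 and 8.46 in WT 1 to 3, a difference of -0.78 (SE 0.25, adjusted p = 0.757). In Ikzf2-/- it differed by 0.13 (SE 0.25) and overlapped WT 4 to 6, at 7.69, 8.72 and 8.09 against 8.05, 7.98 and 8.09. Lgals3, which encodes galectin-3, differed by 0.35 in Ikzf2-/- and 0.26 in dKO. Ptprc, encoding CD45, differed by -0.31 (adjusted p = 0.168) in Ikzf2-/-, where its arrays overlapped those of WT 4 to 6. Lag3, the receptor that inhibits T cells through MHC class II, was at 7.21, 7.57 and 6.97 in dKO, 6.15, 7.19 and 6.18 in Ikzf4-/- and 6.75, 6.52 and 6.28 in WT 1 to 3. Its dKO arrays lay above WT by 0.73 (SE 0.23, adjusted p = 0.746), and its Ikzf2-/- arrays, at 6.53, 6.70 and 6.50, above the 5.90, 6.13 and 6.11 of WT 4 to 6 by 0.53 (adjusted p = 0.278). Penk, which encodes proenkephalin, was at 9.94, 9.42 and 9.58 in Ikzf2-/- against 8.89, 8.56 and 8.03 in WT 4 to 6, a difference of 1.15 (SE 0.25, adjusted p = 0.0821 by limma). In dKO it was at 10.20, 10.19 and 9.82 against 10.10, 9.70 and 9.69 in WT 1 to 3, which overlapped. Icos, a costimulatory receptor of effector Treg cells, differed by 0.30 in Ikzf2-/- and 0.35 in dKO from WT. Of the 18 other suppressive molecules, 8 were negative in Ikzf2-/- and 6 in dKO against WT, down to -0.65 and -0.63. Their medians were 0.02 and 0.14, against 0.02 and 0.004 for all genes. At an unadjusted p under 0.05, 2 were higher and 1 lower in each, where 16.4% and 4.38% of all genes differed.

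**Figure D5:**
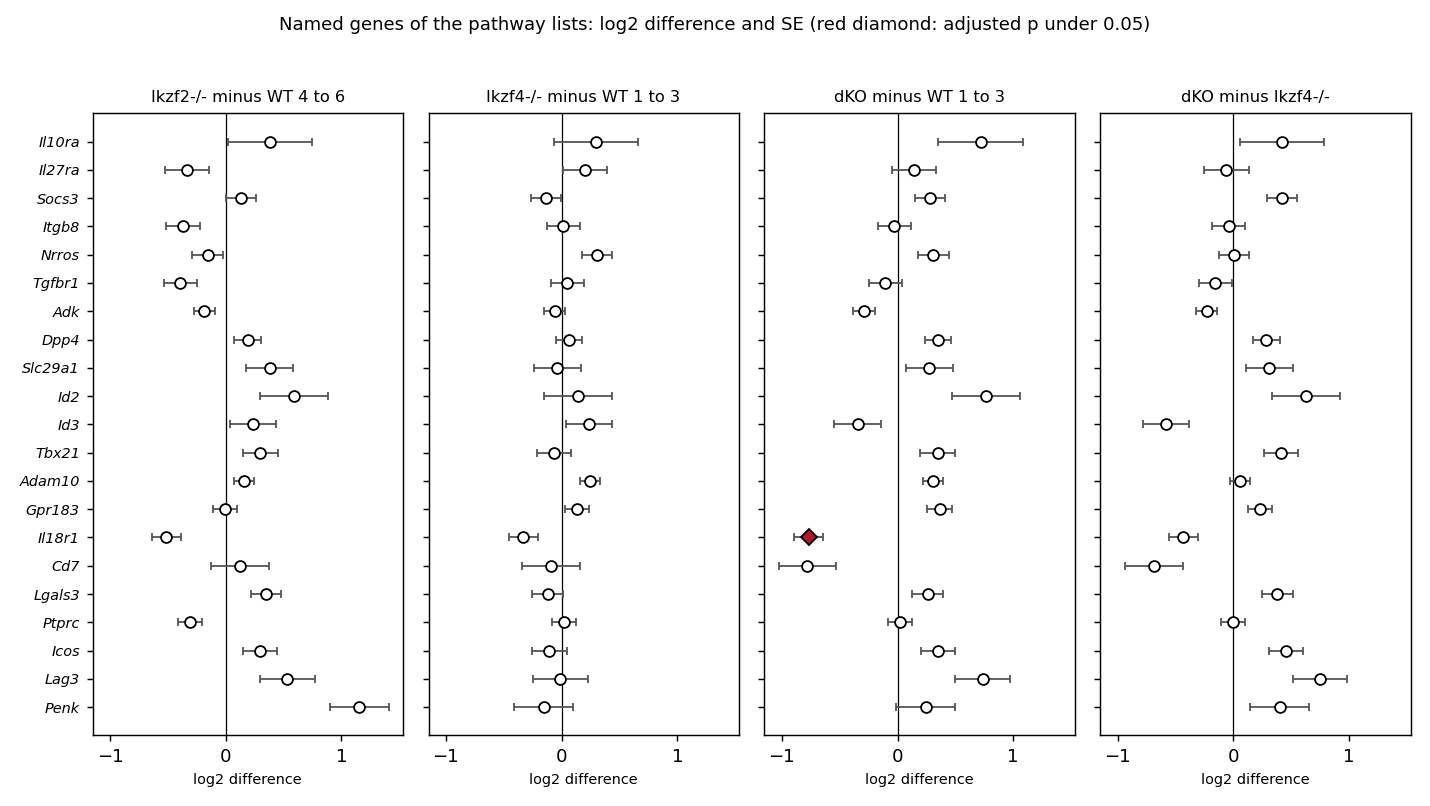
Log2 difference (horizontal axis) with its standard error for the named genes of the 7 lists in the 4 comparisons; the red diamond marks an adjusted p under 0.05. Il18r1 in dKO against WT, at -0.77, is the only diamond, and its point lies below zero in all 4 comparisons.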

How the data were processed

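The deposited table holds log2 signals of 35556 probe sets, which the authors made with robust multi-array averaging (RMA) in Affymetrix Expression Console 1.3.1, per the submitters' processing notes. Each array had received 15 ng of RNA, amplified and biotin-labelled, per the labels' protocols. RMA compresses the differences of dim genes. Array medians lay between 4.82 and 5.01, and precision is limited by how few arrays there are. The build of the array's design is not known here.

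Of the probe sets, 21789 had 1 symbol in the platform annotation (21698 updated through Entrez to GRCm38.p6), 1621 had several and 12146 were not listed. Testing was limited to genes with a group mean over log2 4.96, the median over probe sets of their means. All 15 arrays entered limma 3.58.1 (R 4.3.3) with 5 group means (10 residual and 3.72 prior degrees of freedom), and p was adjusted over 10964 genes. The code was tested on simulated data. Exact permutations within groups (7776, or 216 with set 1 numbers kept together) used scipy 1.17.1.

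The division of WT arrays was inferred from their numbers. Pairs of arrays had equal values in 2286 probe sets on average in set 1, 34.4 in set 2 and 0.0741 across sets, so levels were not compared between sets. Deviations of same-numbered arrays correlated at 0.138, 0.217 and 0.303 between Ikzf4-/- and WT, and at 0.428, 0.196 and 0.267 between dKO and Ikzf4-/-. Between dKO and WT they correlated at 0.0708, 0.0450 and 0.173. A pairing by array number rests on these values alone, and the main fit did not use it.

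The members, lists and tests were chosen with earlier results of these data known. Named were all members, list genes past the threshold and up to 3 per list by smallest unadjusted p, the brightest marker or one singled out by a value, and the 5 genes most like Il10. The co-variation was planned over the other 9 members, of which 8 were measured. Alternatives varied the filter, normalization, scaling, array weights, control arrays, probe set rule, prior, pairing and the arrays left out.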

Additional observations from a re-analysis of the deposited data

How the results depend on the processing

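Of 1175 member differences recomputed under 27 alternatives, 50 changed sign, 3 came past the threshold and the other 1122 kept their direction and their side of it. The 3 were Fgl2 in Ikzf2-/- with array weights (1.3) and without Ikzf2-/- 2 (1.3), and Maf in dKO against WT with array weights (0.49), so the count of members past the threshold, 0 in every comparison, became 1 with array weights in both of those comparisons and 0 to 1 when 1 array was left out of the Ikzf2-/- comparison.

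Counts over all genes were unstable. In Ikzf2-/- against WT 4 to 6 (7 genes) they were 2 without the filter, 0 with only the groups compared, 35 after quantile normalization, 1 with centred arrays, 64 with array weights, 0 with all WT arrays pooled, 3 without both WT 1 and Ikzf2-/- 3, and 0 to 409 without 1 array (409 without Ikzf2-/- 1, 167 without Ikzf2-/- 2). In dKO against WT (7 genes) they were in the same order 0, 1, 2, 0, 21, 4 and 2, and 0 to 9 without 1 array. In dKO against Ikzf4-/- (3 genes) they were 0 without and 6 with a stricter filter, 1 with only the groups compared, 0 after quantile normalization, 0 with centred arrays, 21 with array weights, 7 with the mean over probe sets, 7 with a trended prior, 1 with set 1 alone (chosen after seeing the data) and 0 to 11 without 1 array. Ikzf4-/- against WT (0 genes) gave 0 to 1 without 1 array (1 without WT 2). The difference of Helios loss without and with Eos (0 genes) gave 1 with array weights, 1 without both arrays and 0 to 4 without 1 array; the dKO change minus the Ikzf2-/- change (0 genes) gave 1, 2 and 0 to 2. With the replicate block in set 1, 1 gene passed in dKO against WT in place of 7, Il18r1 no longer passed (adjusted p 0.0556), and the block changed no member's call. In the co-variation with Il10, permuting the set 1 replicate numbers together brought Fgl2 (r = 0.552), Ebi3 (0.468), Nt5e (0.35) and Lgals1 (0.491) past 0.05 after adjustment and kept the calls of Maf, Prdm1 and Tgfb1.

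Signs turned mostly where a difference was near zero. In Ikzf2-/-, Tgfb1 was -0.035 after quantile normalization, -0.30 with WT pooled and -0.18 without both arrays, Entpd1 was 0.17 with array weights, and Nt5e was -0.22 with WT pooled and -0.13 without both arrays. In Ikzf4-/-, Il10 was -0.17 with array weights, and with WT pooled Fgl2 was 0.56, Ebi3 0.23, Entpd1 0.084 and Lgals1 0.16, while without both arrays Fgl2 was 0.041 and Lgals1 0.034. In dKO against WT, Entpd1 was 0.043 with array weights, 0.15 with WT pooled and 0.037 without both arrays, and Ebi3 was 0.35 with WT pooled and 0.064 without both arrays. For Prdm1, the dKO change minus the Ikzf2-/- change was 0.21 without both arrays. Leaving out 1 array gave, in Ikzf2-/-, Ebi3 -0.36 to 0.24, Tgfb1 -0.18 to 0.29, Entpd1 -0.45 to 0.32 and Nt5e -0.13 to 0.60; in Ikzf4-/-, Il10 -0.51 to 0.64, Fgl2 -0.38 to 0.13, Ebi3 -0.38 to 0.015, Tgfb1 -0.058 to 0.12 and Lgals1 -0.15 to 0.034; in dKO against WT, Ebi3 -0.097 to 0.064, Tgfb1 -0.031 to 0.15 and Entpd1 -0.15 to 0.053. In dKO against Ikzf4-/- it gave Ebi3 -0.044 to 0.35 and Entpd1 -0.0037 to 0.12. For the difference of Helios loss without and with Eos it gave Il10 -1.05 to 0.099, Prdm1 -0.16 to 0.48 and Maf -0.067 to 0.18, and for the dKO change minus the Ikzf2-/- change Prdm1 -0.48 to 0.16. Pooling WT arrays mixes 2 separately normalized sets; the cause of the other changes was not tested. With 3 arrays a group, Il10 had the widest interval of the 9 genes.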
